A study of Bos taurus with 15 samples.

Results

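The glucocorticoid receptor target genes described here are 10 genes whose transcription the hormone-loaded receptor controls in many tissues: FKBP5, TSC22D3, DUSP1, SGK1, KLF9, ZBTB16, CEBPB, CEBPD, FAM107A and STOM. They were chosen by name, and the probes were taken by the gene name or the symbol in brackets in the array's own description. That rule found 9 of the 10 genes with 11 probes, and the gene number added the 2 probes of SGK1. The array files give the older name SGK for 1 of these probes and only a gene number for the other. All 10 genes were therefore measured, among 15052 genes with a symbol on the array and 11928 with a probe bright enough to test.

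Thymus came from 15 Holstein cattle at the slaughterhouse, 1 animal per array. Prednisolone, a man-made glucocorticoid, had been given orally to 8 of them for 35 days, with 30 mg for each animal every day, and the 7 controls were untreated. The labels name no other agent and no genotype. The time between the last dose and slaughter, the animals' ages and the hormone levels in blood are not given in the sources used here. Total RNA of the whole organ was labelled with 1 dye, so fewer cells of a type and less RNA per cell cannot be told apart in any value below.

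Glucocorticoids enter the cell and bind the glucocorticoid receptor, which is held in the cytoplasm by heat shock proteins and their partners. The loaded receptor moves to the nucleus and binds DNA near its target genes, several of which are switched on within hours in almost every cell type. Cortical thymocytes, the immature T cells that fill most of the thymus, are known for dying when the receptor is active. FKBP5 RNA is widely used as a readout of receptor activity because the receptor induces its transcription directly, and its protein in turn feeds back on the receptor.

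The 15 arrays lay on 4 slides. Slide 4 held prednisolone animals 2, 4 and 7 and no control, while slides 1, 2 and 3 held both groups. On every array 67.1% to 77.7% of the spots were well above background. The slide 4 arrays stood apart: 840 to 1050 spots on each were marked as outliers by the scanner software, against 5 to 17 on the others. The dimmest spots called well above background there lay at -7.18 to -7.09 on the log2 scale relative to the 75th percentile of their array, against -6.13 to -5.40 on the other slides. The 10 target genes as a set are therefore compared over all arrays, with a term for slide (the slide block), and with slide 4 left out. Since slide 4 held no control, its arrays enter the slide-blocked fit only through the spread. For the target genes the slide-blocked difference is the mean of the differences within slides 1, 2 and 3. For single target genes not all of these values are printed. Treatment differences of single genes outside the 10, cell type markers included, are given over all arrays only. Whether slide plays a part in those differences was not tested. All 11 thymocyte genes on the array were well above background on all 15 arrays. So were 13696 of all 21475 probes, all 10 fibroblast genes and all 8 neutrophil genes on the array. The count therefore does not single out thymus.

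Every level below is the log2 signal of a probe relative to the 75th percentile of its own array, averaged over the 2 spots of the probe, and every difference is prednisolone minus control on that scale. A level says nothing against the level of another probe. In limma, with Benjamini-Hochberg adjustment over 16069 probes, none of the 13 target probes differed between prednisolone and control, and neither did any other probe (0%). At an unadjusted p under 0.05 there were 1138 probes, or 7.08% of those tested, and 1 of the 13 target probes, of SGK1. The smallest adjusted p over all probes was 0.236. Leaving out prednisolone animal 1 gave 3 called probes and quantile normalization gave 1, none of them of a target gene. In the fit with slide as a block 0 probes were called, and up to 4 when 1 animal was left out (4 without prednisolone animal 3, and 1 without prednisolone animal 1, control 2 or control 3), again none of a target gene.

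With each gene represented by its brightest probe, 7 of the 10 target genes were lower and 3 were higher in the prednisolone group, against 49.6% lower among all 11928 genes. The median difference of the 10 genes was -0.20, and that of all genes was 0.00. In the slide-blocked fit the median was -0.23 with 7 genes lower, and without slide 4 it was -0.12, again with 7 lower. The median over all probes was 0.0003 in the slide-blocked fit and 0.02 without slide 4. The share of all genes lower in either of these fits is not given here, so both counts are a description. Within slides 1, 2 and 3, the only ones with both groups, 8, 10 and 5 of the 10 genes were lower. On each of these slides 1 group was a single animal. It was prednisolone animal 6 on slide 1, control 3 on slide 2 and prednisolone animal 1 on slide 3. Control 3 was the highest of all animals for FKBP5, KLF9 and CEBPB. The share of all genes lower within each slide is not given here. FKBP5, TSC22D3, SGK1, FAM107A and STOM were lower in all 3. DUSP1, ZBTB16 and CEBPD made up the genes with a higher mean. None of the 10 values passed the test under any of the 44 settings tried, where the smallest adjusted p was 0.236.

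**Figure D1:**
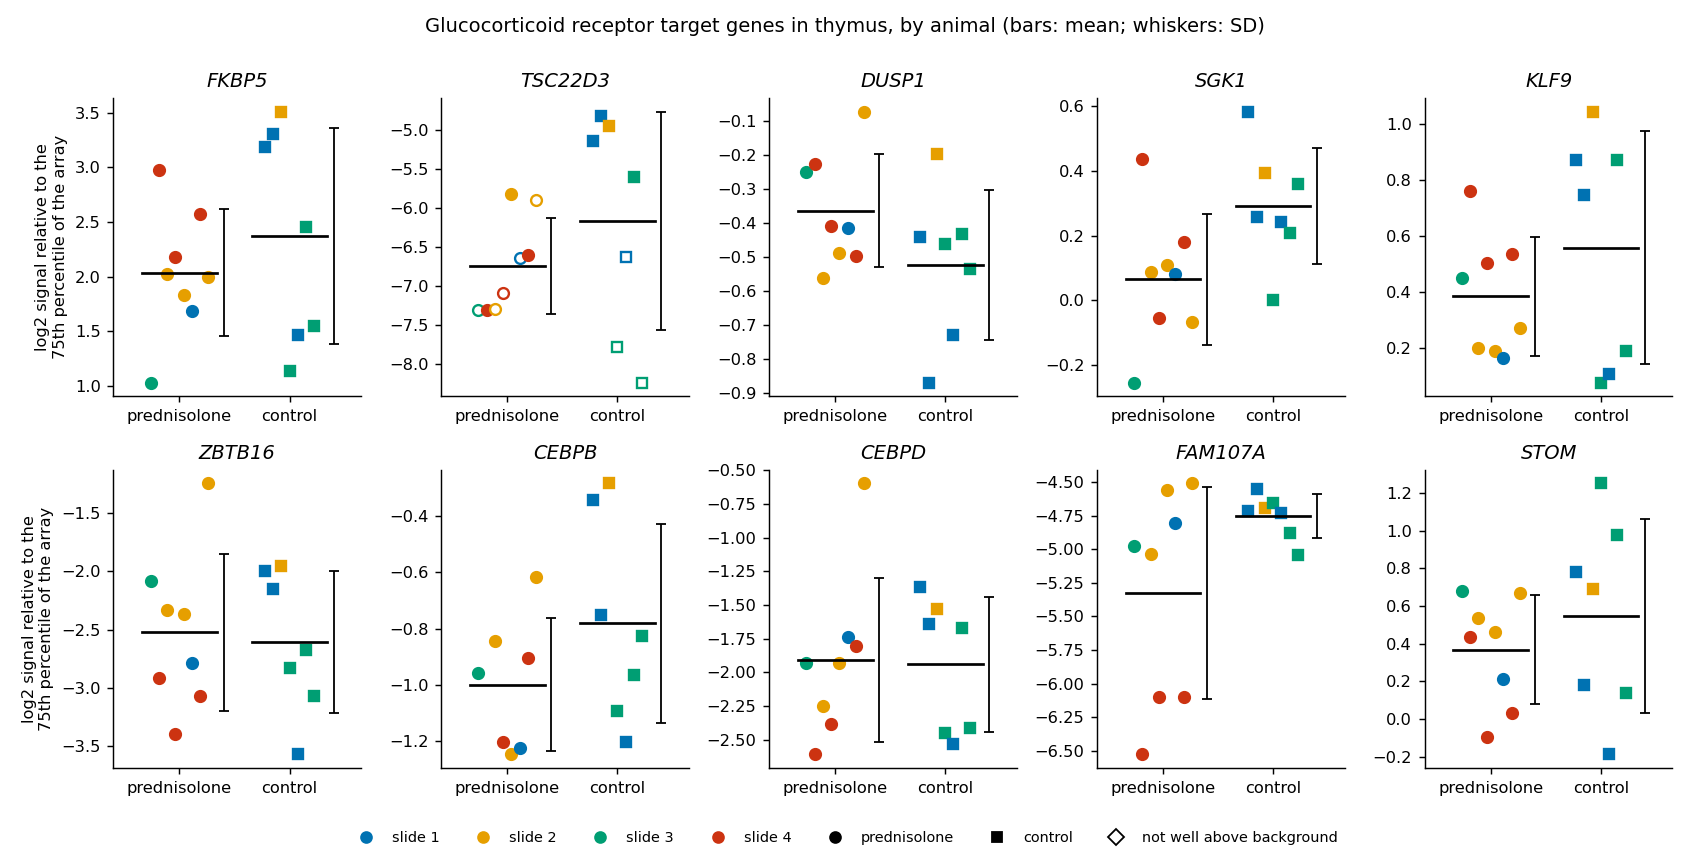
Log2 signal of the 10 target genes relative to the 75th percentile of each array (vertical axes) in prednisolone and control animals. Each point is 1 animal coloured by slide, bars are group means and whiskers are SD. The groups overlap for all 10 genes, and the 3 animals of slide 4 lie apart from the others for FAM107A.

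FKBP5 encodes an immunophilin that joins the receptor and its heat shock protein partners and lowers the receptor's affinity for hormone. Its level in the 8 prednisolone animals ran from 1.03 over a median of 2.01 to 2.97, and in the 7 controls from 1.13 over a median of 2.45 to 3.51. Controls 1, 2 and 3 were the highest of all animals, above every prednisolone animal, controls 4, 5 and 7 were among the lowest, and control 6 lay inside the prednisolone range. The groups thus overlapped in part, with most prednisolone animals in the middle. The controls spanned 5.20-fold and the prednisolone animals 3.86-fold. The spread within groups was larger than that of 94.4% of all probes tested. The difference was -0.33 ± 0.38 (SE), with a 95% confidence interval from -1.15 to 0.48 and an adjusted p of 0.896. Leaving out 1 animal moved it between -0.54, without control 4, and -0.14, without control 3.

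Among the 10 gene values, that of FKBP5 moved most when slide entered the model. The 3 prednisolone animals of slide 4 averaged 2.58, against 1.71 for the other 5 prednisolone animals. Within slide 1 the difference between prednisolone and control was -0.96, within slide 2 it was -1.56 and within slide 3 it was -0.68. Each of these rests on 4 arrays, with a single animal in 1 of the groups. The slide-blocked difference was -1.07 ± 0.36 (SE), with an interval from -1.86 to -0.28, an unadjusted p of 0.0119 in limma and an adjusted p of 0.374. It is the mean of these 3 within-slide differences and is not separate from them. Without slide 4, and with no slide block, the difference was -0.66, with an adjusted p of 0.680.

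The 2 spots of the FKBP5 probe did not read alike. On slides 1 to 3 the first spot was 0.60 to 2.27 log2 units below the second, and on slide 4 it was only 0.04 to 0.12 below. Taken alone, the first spot gave a difference of -0.23 ± 0.47 (SE) and the second one of -0.44 ± 0.34. In the slide-blocked fit the first gave -1.28 ± 0.35 and the second -0.85 ± 0.41, with adjusted p of 0.236 and 0.518 over 32173 spots. Both spots thus gave the same direction in both fits, and neither passed the test.

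TSC22D3 encodes GILZ, a leucine zipper protein that carries part of the anti-inflammatory action of glucocorticoids. Its level ran from -7.30 over -6.86 to -5.82 in the prednisolone group and from -8.24 over -5.60 to -4.82 in controls. The probe was dim, being well above background in 3 of 8 prednisolone and 4 of 7 control animals. Controls 1, 2, 3 and 6 were the 4 highest animals and controls 4 and 7 the 2 lowest, and all 8 prednisolone animals lay in the gap between. The difference was -0.58 ± 0.50 (SE), with an adjusted p of 0.850, and in the slide-blocked fit it was -0.87 ± 0.54, with an adjusted p of 0.658.

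DUSP1 encodes a phosphatase that switches off MAP kinases and is the other anti-inflammatory effector among the 10 genes. It ran from -0.56 over -0.41 to -0.07 in prednisolone animals and from -0.87 over -0.46 to -0.20 in controls. The animals were mixed, with prednisolone animal 8 highest and control 2 lowest. The difference was 0.16 ± 0.10 (SE), with an interval from -0.06 to 0.38 and an adjusted p of 0.777. Blocked by slide it was 0.11 ± 0.13. An increase of more than 0.38 on the log2 scale lies outside both intervals.

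SGK1 encodes the serum and glucocorticoid regulated kinase, which acts on ion channels and cell survival. Its brighter probe ran from -0.25 over 0.09 to 0.44 in prednisolone animals and from 0.00 over 0.26 to 0.58 in controls. Most prednisolone animals lay below the control median, 7 of 8, but prednisolone animal 2 was above all controls except control 1. The difference was -0.23 ± 0.10 (SE), with an unadjusted p of 0.0414 in limma and an adjusted p of 0.700. Blocked by slide it was -0.36 ± 0.11, with an interval from -0.61 to -0.11, an unadjusted p of 0.00825 and an adjusted p of 0.348. FKBP5 and SGK1 were the 2 of 13 target probes under an unadjusted p of 0.05 in the blocked fit, where 9.57% of all probes were. SGK1 was lower by 0.28, 0.35 and 0.44 within slides 1, 2 and 3. The second SGK1 probe gave -0.11 ± 0.15 without the block and -0.22 ± 0.11 with it, and neither passed.

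KLF9 encodes a zinc finger factor that many cell types induce directly with glucocorticoids. Its level ran from 0.16 over 0.36 to 0.76 in prednisolone animals and from 0.08 over 0.75 to 1.04 in controls. The controls formed a high set of animals 1, 2, 3 and 6 and a low set of animals 4, 5 and 7. The prednisolone animals lay mostly between the 2 sets. The difference was -0.17 ± 0.16 (SE), with an adjusted p of 0.856. The slide-blocked value was -0.39 ± 0.20, with an adjusted p of 0.576. Of its spots, 3 were marked as outliers and left out, all on slide 4.

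ZBTB16 encodes PLZF, a transcriptional repressor best known in innate-like T cells and in stem cells. Its brighter probe, described as lying 3′ of the human gene, ran from -3.39 over -2.58 to -1.25 in prednisolone animals and from -3.57 over -2.68 to -1.95 in controls. Prednisolone animal 8 was far above the rest, and control 5 was lowest. The difference was 0.08 ± 0.31 (SE), with an adjusted p of 0.974, and it turned negative without prednisolone animal 8 (-0.10) or control 5 (-0.08). The second probe gave -0.68 ± 0.52, and without slide 4 it gave 0.35, so that the 2 probes of the gene disagreed in sign over all arrays. Taken alone, the 2 spots of the second probe gave -1.44 ± 0.61 and 0.07 ± 0.53. In the slide-blocked fit they gave -0.24 ± 0.17 and 0.61 ± 0.39. The spots thus disagreed in sign in both fits, and none passed (adjusted p 0.622 to 0.990 in limma over 32173 spots).

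CEBPB and CEBPD encode C/EBP transcription factors that drive myeloid and fat cell programmes and acute phase genes. CEBPB ran from -1.25 over -0.96 to -0.62 in 7 prednisolone animals and from -1.20 over -0.83 to -0.28 in controls. Both spots of prednisolone animal 2 were marked as outliers, so this animal has no value. Controls 1 and 3 were the highest and the remaining animals were mixed. The CEBPB difference was -0.22 ± 0.15 (SE), with an adjusted p of 0.807, and with slide as a block it was -0.36 ± 0.19, with an adjusted p of 0.581.

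The brighter CEBPD probe ran from -2.61 over -1.93 to -0.60 in prednisolone animals and from -2.53 over -1.67 to -1.36 in controls. Prednisolone animal 8 stood alone at the top, as it did for ZBTB16, and the other 7 prednisolone animals lay below the control median. The difference was 0.04 ± 0.27 (SE), with an adjusted p of 0.986. Without prednisolone animal 8 it was -0.15, and without control 4, 5 or 7 it was between -0.06 and -0.04. The second CEBPD probe gave -0.21 ± 0.25 over all arrays and 0.17 without slide 4.

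FAM107A encodes an actin-binding protein that stress and glucocorticoids induce in mouse brain. It ran from -6.53 over -5.00 to -4.51 in prednisolone animals and from -5.04 over -4.72 to -4.55 in controls. The 3 prednisolone animals of slide 4 lay below all other animals, and the other 5 overlapped the controls. The difference of -0.57 ± 0.29 (SE), with an adjusted p of 0.704, was -0.02 without slide 4 and -0.09 ± 0.13 with slide as a block.

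STOM encodes stomatin, a membrane scaffold protein of red cells and many other cells. Its level ran from -0.10 over 0.45 to 0.68 in prednisolone animals and from -0.19 over 0.69 to 1.25 in controls. All 8 prednisolone animals lay below the control median, yet 3 of the 7 controls were as low as they were. The difference was -0.18 ± 0.20 (SE), with an adjusted p of 0.892, and without slide 4 it was -0.03.

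**Figure D2:**
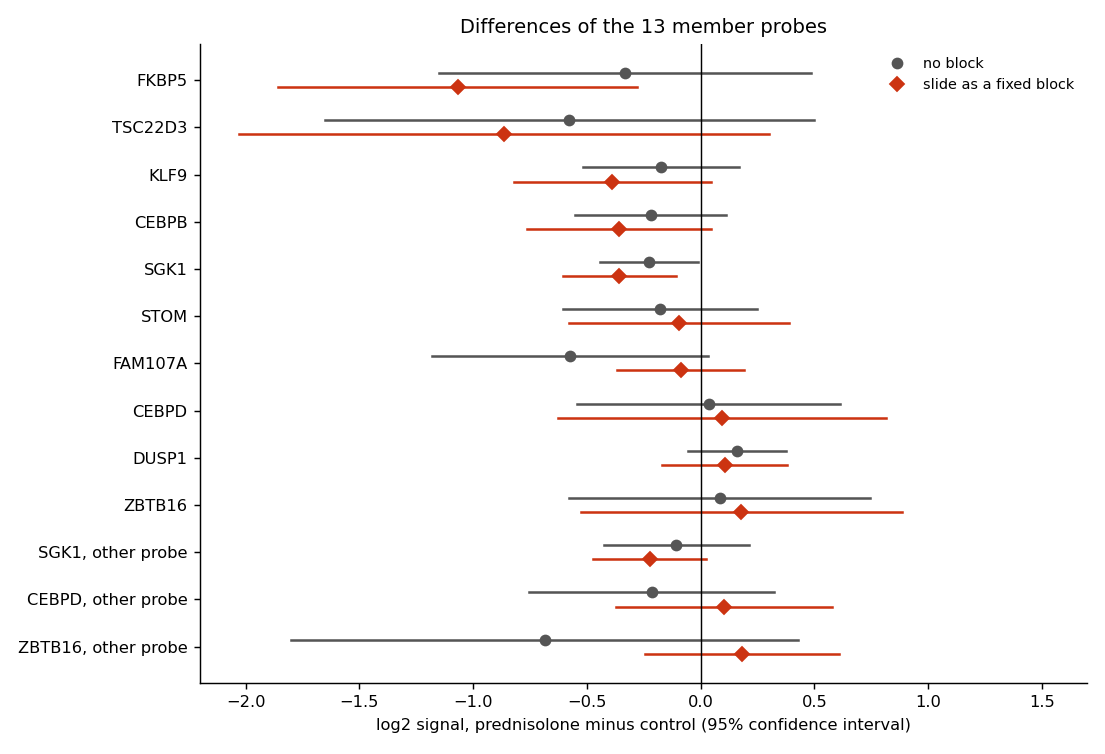
Difference in log2 signal, prednisolone minus control, for the 13 probes of the 10 genes (points) with 95% confidence intervals (lines), without a block (grey circles) and with slide as a fixed block (red diamonds). FKBP5 moves from -0.33 to -1.07 with the block and FAM107A from -0.57 to -0.09.

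Some of these probes also differed between slides. In a moderated F test for slides, with treatment in the model, 4909 of 16053 probes (30.6%) differed between slides. So did 4 of the 13 target probes, which is close to the share of all probes. These were FAM107A (adjusted p 6.64e-05) and the dimmer probes of ZBTB16 (1.22e-05), SGK1 (0.00805) and CEBPD (0.0229). FKBP5 missed the threshold at 0.0502, and its outcome turned with the processing. It passed with median centring (0.0411), no filter on dim probes (0.0437), only probes well above background on all arrays (0.0494) and outlier spots kept (0.0498). It missed with quantile normalization (0.0628), normexp background correction (0.117), the deposited values (0.0678) and a robust limma fit with a trend (0.0583). With normexp none of the 4 called probes passed the F test (adjusted p 0.343 to 0.452). The CEBPD probe also missed it with quantile normalization (0.0885), and the CEBPD and SGK1 probes with the deposited values (0.0770 and 0.0848).

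Within the prednisolone group, slide 4 differed from the other arrays at 3258 of 16053 probes (20.3%), of which 2262 (14.1%) were lower. Without prednisolone animal 2 the count was 2111. FAM107A was lower on slide 4 by 1.46 ± 0.15 (SE), with an adjusted p of 4.74e-06. The dimmer CEBPD probe was lower by 1.04 ± 0.24, with an adjusted p of 0.00747. The dimmer ZBTB16 probe was not well above background on any slide 4 array, averaging -7.75 there and -5.00 in the other prednisolone animals. Taking the dimmest signal called above background as the floor, it was at least 4.39-fold lower on slide 4. The adjusted p in limma was 5.78e-07, and the bound holds for this processing only. The 2 spots of this ZBTB16 probe did not read alike. The first minus the second ran from -0.05 to 3.77 on slides 1 to 3 and from -0.20 to 1.99 on slide 4. FKBP5 differed by 0.86 ± 0.51 in the other direction and did not pass, at an adjusted p of 0.247. With normexp background correction these 3 differences were smaller, at -0.62 for FAM107A, -0.69 for the CEBPD probe and -0.71 for the ZBTB16 probe, and none passed (adjusted p 0.650 to 0.830), as only 79 of all probes did. Quantile normalization gave -0.85 for FAM107A, which still passed at an adjusted p of 1.21e-05. Slide 4 and the prednisolone treatment of its animals cannot be told apart by comparison with controls, since it held none.

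**Figure D3:**
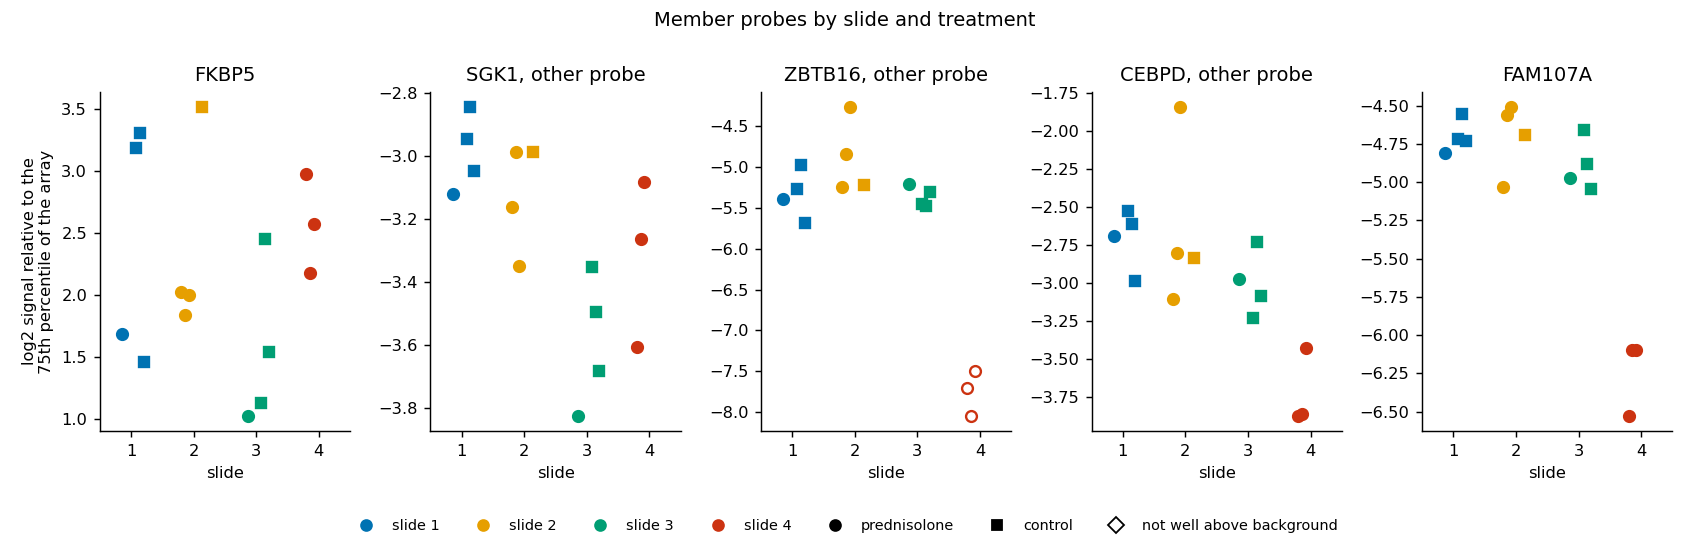
Log2 signal relative to the 75th percentile of the array (vertical axes) by slide (horizontal axes) for FKBP5 and the 4 target probes that differed between slides. Circles are prednisolone and squares control animals, and open symbols were not well above background. FAM107A averaged -6.24 on slide 4 against -4.78 in the other prednisolone animals.

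While no group difference passed the test, some target genes varied together between animals. Over the 45 pairs of genes, 35 (77.8%) had a positive Pearson correlation and the median r was 0.34. Over all pairs of 11871 measured genes with complete values, 50.7% were positive and the median r was 0.01. After adjustment over the 45 pairs, 6 passed a permutation test, all with r of at least 0.683. That is 13.3% of the target pairs, and 2.80% of all gene pairs reached that r. These shares are a description, since pairs share genes and all share the arrays and slides. The strongest was FKBP5 with KLF9, with r = 0.854 and Spearman's rho = 0.850 over 15 animals (adjusted permutation p 0.00315 and 0.0063). It remained at 0.792 without the 2 animals farthest from the FKBP5 median, controls 2 and 3. It was 0.844 over the 12 animals outside slide 4 (adjusted permutation p 0.0203). On what remained after a fit with additive terms for slide and treatment, it was 0.914 (adjusted permutation p 0.00945). Such values are called within slide and group below. They keep any treatment difference that varies between slides. In the 8 prednisolone animals alone r was 0.587 and rho 0.738 (adjusted exact permutation p 0.486 and 0.432), and in the 7 controls alone r was 0.939 and rho 0.893 (0.0997 and 0.0923). Within a single group none of the 45 pairs passed after adjustment.

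ZBTB16 and CEBPD had r = 0.816 and rho = 0.779 (adjusted permutation p 0.0063 and 0.0167). Without prednisolone animal 8 and control 5, the 2 farthest, r was 0.648. It was 0.849 without slide 4 (adjusted p 0.0171) and 0.785 within slide and group (adjusted p 0.0404). It was 0.763 in the prednisolone animals and 0.902 in the controls. These 2 genes and FKBP5 with KLF9 were the pairs past the threshold over all animals, without slide 4 and within slide and group alike.

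The other 4 pairs were less even. TSC22D3 with CEBPD gave r = 0.689 and rho = 0.771 (adjusted permutation p 0.0447 and 0.0167), 0.728 within slide and group (adjusted p 0.0404) and 0.660 without slide 4 (adjusted p 0.0984). FKBP5 with TSC22D3 gave r = 0.704 and rho = 0.700 (adjusted permutation p 0.0447 and 0.0576), 0.853 without slide 4 (adjusted p 0.0171) and 0.707 within slide and group (adjusted p 0.0814). It was 0.523 without the 2 animals farthest from the median, and the dimness of the TSC22D3 probe applies here too. By group, r of FKBP5 with TSC22D3 was -0.07 in the 8 prednisolone animals (unadjusted exact permutation p 0.863) and 0.920 in the 7 controls (0.00635). Likewise r of FKBP5 with CEBPB was 0.133 in 7 prednisolone animals (unadjusted exact permutation p 0.800) and 0.829 in the 7 controls (0.0272). Whether these correlations differ between the groups was not tested. FKBP5 with CEBPB (r = 0.691 over 14 animals) and FKBP5 with SGK1 (r = 0.683) had adjusted permutation p of 0.0493 and 0.0447. Neither of these passed by rank, without slide 4 or within slide and group, at adjusted permutation p of 0.0606 to 0.322. Within slide and group, ZBTB16 with CEBPB also passed, at r = 0.825 (adjusted permutation p 0.043).

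**Figure D4:**
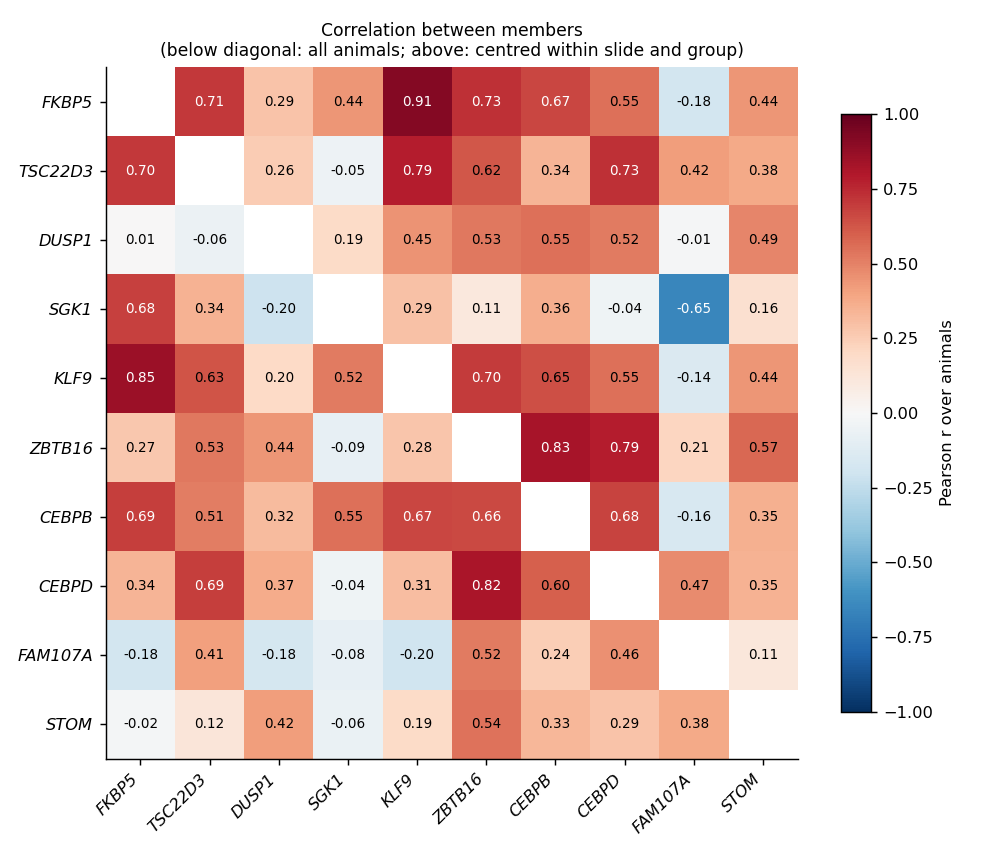
Pearson correlation over animals between the log2 signals of the 10 genes. Values below the diagonal are from all animals. Those above it are from what remained after a fit with additive terms for slide and treatment. FKBP5 with KLF9 reads 0.85 below and 0.91 above the diagonal, and ZBTB16 with CEBPD reads 0.82 and 0.79.

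FKBP5 was then set against other genes known to be induced by glucocorticoids, 31 of 36 of which had a probe bright enough. None of the 31 differed between prednisolone and control, with 11 higher, 20 lower and a median difference of -0.07. Smallest in p were PIK3IP1, which restrains PI3 kinase, at 0.27 ± 0.11 (SE, adjusted p 0.655), and PCK1, an enzyme of glucose synthesis, at 1.15 ± 0.47 (adjusted p 0.677). PCK1 was well above background in 7 of 8 prednisolone and 3 of 7 control animals.

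Over the 15 animals, FKBP5 correlated positively with 21 of the 31 genes, with a median r of 0.32, against a median of 0.02 with 16001 other probes. After adjustment over the 31 genes, 5 passed a permutation test, 4 positive and 1 negative. The shares of all probes with a positive r, or with an r as large as these 5, are not given here. The counts of 21 and 5 are therefore a description of these genes alone. CXCR4, a chemokine receptor of thymocytes, gave r = 0.808 and rho = 0.832 (adjusted permutation p 0.0102 and 0.00465). It stayed at 0.784 without the 2 farthest animals, 0.814 without slide 4 and 0.718 within slide and group (adjusted p 0.0136). DDIT4, an inhibitor of mTOR signalling, gave r = 0.779 and rho = 0.843 (adjusted permutation p 0.0112 and 0.00465), 0.708 without the 2 farthest animals, 0.846 without slide 4 and 0.780 within slide and group (adjusted p 0.0270). PIK3IP1 ran the other way, with r = -0.664 (adjusted permutation p 0.0350), rho = -0.568 (0.181) and -0.842 within slide and group (0.0136). SESN1, a stress-induced regulator of mTOR, and NFKBIA, the inhibitor of NF-kappa-B, gave r of 0.701 and 0.674 (adjusted permutation p 0.0349 and 0.0350). They were at 0.417 and 0.418 within slide and group, where neither passed (adjusted permutation p 0.422). Within slide and group 6 of the 31 genes passed. Besides CXCR4, DDIT4 and PIK3IP1 these were CD163, GLUL and RGS2, with r of 0.838, 0.796 and 0.755 (adjusted permutation p 0.0136, 0.0175 and 0.0136). Over all animals their r was 0.436, 0.317 and 0.525, and none of them passed (adjusted permutation p 0.267, 0.433 and 0.148). By group, r of FKBP5 with CXCR4 was 0.872 in prednisolone animals and 0.792 in controls, with DDIT4 0.627 and 0.840, and with PIK3IP1 -0.317 and -0.790. None of the 31 passed within a group alone (lowest adjusted exact permutation p 0.0507, for CXCR4 in prednisolone animals). SESN1 was well above background in 5 of 8 prednisolone and 5 of 7 control animals.

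DDIT4 also varied widely among the controls. Its level ran from 1.54 over 1.84 to 2.78 in prednisolone animals and from 1.58 over 2.54 to 3.50 in controls. Controls 1, 2, 3 and 6 were high and controls 4, 5 and 7 low, with the prednisolone animals mostly near the low set. The difference was -0.60 ± 0.30 (SE), with an adjusted p of 0.704.

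**Figure D5:**
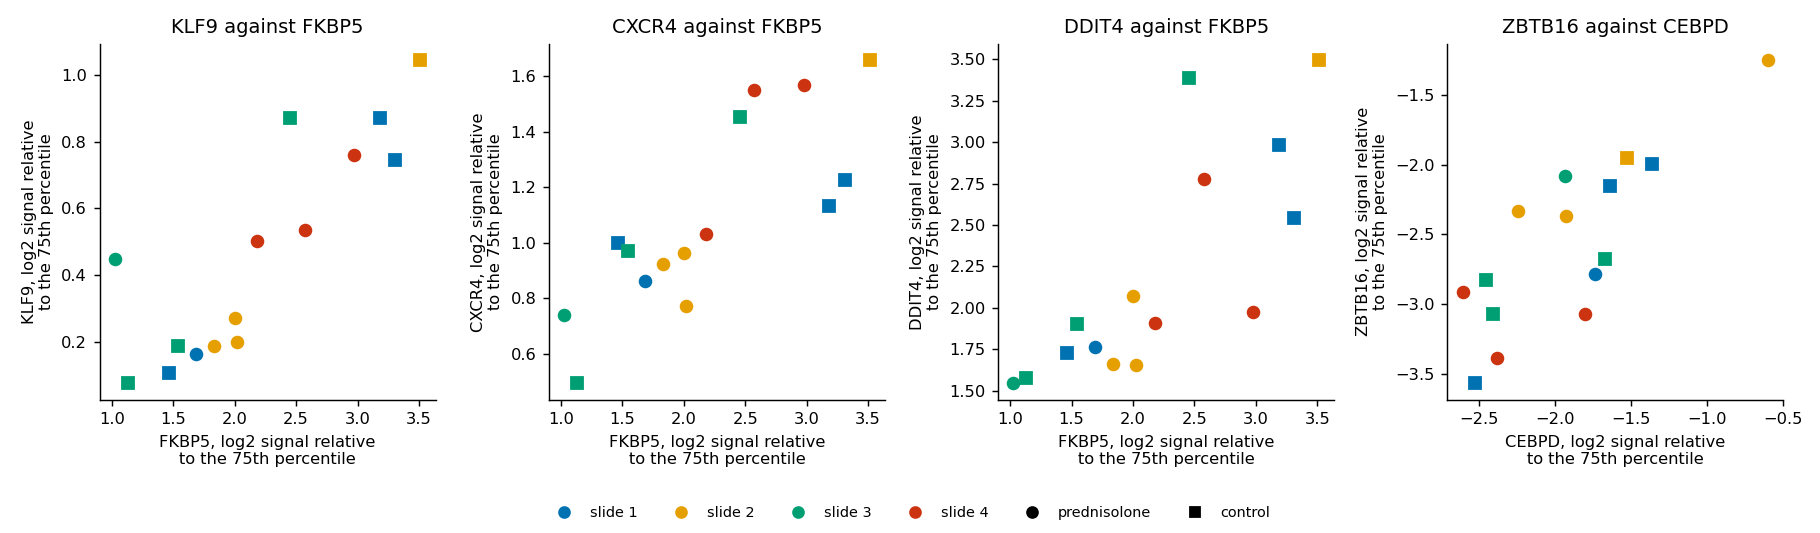
Log2 signals relative to the 75th percentile of each array (both axes) for 4 pairs of genes, 1 point per animal coloured by slide, with circles for prednisolone and squares for control. KLF9, CXCR4 and DDIT4 run with FKBP5 (r = 0.854, 0.808 and 0.779), and ZBTB16 runs with CEBPD (r = 0.816).

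The machinery that carries the receptor was measured for 7 of 9 listed genes, 3 higher and 4 lower, with a median difference of -0.01 and none called. NR3C1, the glucocorticoid receptor itself, ran from 1.59 over 2.03 to 2.33 in prednisolone animals and from 1.60 over 2.11 to 2.44 in controls, a near complete overlap. Its difference was -0.07 ± 0.14 (SE), with an adjusted p of 0.948. HSD11B2, which inactivates cortisol, had the smallest p, at -0.40 ± 0.20 (adjusted p 0.704), followed by HSP90AA1, a heat shock protein that holds the receptor, at 0.19 ± 0.29 (adjusted p 0.927). HSP90AA1 reached 6.34 in 1 prednisolone animal, against a prednisolone median of 4.37 and a control median of 4.24.

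Genes that glucocorticoids repress were measured for 11 of 14 listed names, with 9 higher, 2 lower, a median difference of 0.25 and none called. The list held CXCL8 and also its older name IL8, and this gene was measured as CXCL8. IL1A, the cytokine interleukin 1 alpha, had 0.83 ± 0.23 (SE, adjusted p 0.505), but was well above background in 7 of 8 prednisolone and only 1 of 7 control animals. IL1B, the related interleukin 1 beta, had 0.50 ± 0.18 (adjusted p 0.655) and was well above background in 8 of 8 and 6 of 7.

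The gene most like each target gene over the animals, by Pearson's r among 11862 genes, was a different one in every case. KLF13, another Krüppel-like factor, was nearest to FKBP5 at r = 0.875. PGRMC1, a haem-binding membrane protein, was nearest to KLF9 at 0.898. SRGN, the granule proteoglycan serglycin, was nearest to SGK1 at 0.886, and PFKFB3, a regulator of glycolysis, was nearest to CEBPB at 0.864 over 14 animals. For ZBTB16 it was DHRS3, a retinal reductase, at 0.922, and for CEBPD it was DLC1 at 0.887. TSC22D3 was nearest to ZKSCAN4, a zinc finger protein, at 0.920, DUSP1 to FKBP7, an isomerase of the FK506-binding family, at 0.848, and STOM to GSTM3, a glutathione transferase, at 0.888. FAM107A ran with DNAI1, a dynein of cilia, at 0.990, and 0.882 within slide and group. These are the highest of many correlations and carry no test.

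Cell type markers were compared beside these values. Thymocyte markers summed to 258 to 317 on the linear scale in prednisolone animals and 248 to 298 in controls, with 9 of 11 higher. All 12 macrophage markers were lower (13.5 to 29.4, against 18.2 to 32.7), as were all 6 erythroid markers (18.5 to 41.7, against 21.5 to 69.3). Among the adipocyte markers 12 of 13 were higher (8.44 to 38.4, against 7.02 to 19.5). In the other lists, 7 of 9 B cell, 8 of 9 muscle and 7 of 10 fibroblast markers were higher. Lower were 7 of 8 neutrophil, 7 of 10 endothelial and 7 of 11 thymic epithelial markers. Counts leaning to 1 side were thus common among the lists. None of these markers passed the test. The prednisolone animals of slide 4, which held no control, spanned 13.5 to 20.5 for macrophage and 18.5 to 23.3 for erythroid markers. They spanned 295 to 317 for thymocyte and 8.44 to 10.2 for adipocyte markers. The lowest macrophage, erythroid and adipocyte sums and the highest thymocyte sum of the prednisolone group were thus on slide 4. Values with slide in the model are not given for these lists. Over 10 marker lists and 10 target genes, none of 100 correlations over the animals passed a permutation test after adjustment. The 2 smallest p were for CEBPB with thymocyte markers (r = -0.771, rho = -0.644) and with endothelial markers (r = 0.749, rho = 0.749), with adjusted permutation p of 0.0737 and, by rank, 0.210 and 0.0933. The part of cell composition in the target genes' values was not tested further.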

How the data were processed

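Per the labels' protocols, RNA was extracted with TRIzol, cleaned on RNeasy MinElute columns and hybridised to Agilent bovine arrays with 1 dye. The deposited scanner files give the intensity of each spot, and per the file headers they were written by version 9.5.1.1 of Feature Extraction. The processed signal is background-subtracted and corrected for a trend across the array, per the labels, and it is given to few significant digits. A second deposited intensity table, of the authors' own values, served as an alternative. The submitters' processing notes name R 2.11.1. A genome build is not given in the sources used here.

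Each array's 75th percentile was subtracted from the log2 of this signal, spots marked as outliers were left out, and spots of a probe were averaged. A probe was kept if 7 or more of the 15 arrays had it well above background. FKBP5, TSC22D3, DUSP1, KLF9, FAM107A and STOM were named from the human gene in the probe's description. Groups follow the treatment label, and replicate numbers follow sample order. That samples are separate animals rests on the labels. The tests ran in limma 3.58.1 (R 4.3.3), and slides were read from the file headers. All arrays were scanned on 1 day. Correlations used 100000 permutations (two-sided), within slides for the values called within slide and group, and all permutations within a single treatment group. The values called within slide and group were what remained after a fit with additive terms for slide and treatment. The pair and limma steps were tested on simulated data. The number of arrays limits the precision.

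The target genes and lists were chosen with earlier results of these data known. The comparison of FKBP5 with the other induced genes and the single spots of FKBP5 and ZBTB16 were added after seeing the values. So were the comparisons with marker lists and of pairs within a treatment group. Every probe of the 10 genes is reported. From each of the 3 pathway lists the 2 genes with the smallest p are named, with the pairs past the threshold and the nearest gene of each target gene. CXCR4, DDIT4, SESN1, NFKBIA, CD163, GLUL, RGS2 and NR3C1 were named after their values were seen. A search for promoter motifs was not run.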

Additional observations from a re-analysis of the deposited data

Results flagged for a closer look

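One value among 26 groups of samples (13 probes in 2 treatment groups) lay far from the rest of its group, and chance flags about 1 in 20 groups. The CEBPD level of prednisolone animal 8 was -0.60, with the nearest prednisolone animal at -1.74, a gap that took 0.567 of the range of the 8 animals. The same animal had the highest ZBTB16 level, -1.25.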

How the results depend on the processing

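No paired analysis was possible because the replicate numbers follow sample order and the labels pair no animals. Of 281 alternative values of the 10 genes, 0 passed the threshold and 11 had the opposite sign, all of ZBTB16 or CEBPD, and the other 8 genes kept their sign in these. The 30 values within single slides are not among them: 6 had the opposite sign, and these also turned DUSP1 (-0.18 within slide 2), KLF9 (0.07 within slide 3) and CEBPB (0.0045 within slide 3). ZBTB16 was -0.27 with normexp and -0.30 with both probes averaged, and from -0.10 to 0.21 leaving out 1 animal. CEBPD was -0.15 with normexp, -0.00099 with array weights and -0.090 with both probes averaged, and from -0.15 to 0.14 leaving out 1 animal. In the slide-blocked fit the ranges were -0.12 to 0.37 for ZBTB16 and -0.052 to 0.20 for CEBPD. The second ZBTB16 probe was 0.18 in the slide-blocked fit and 0.35 without slide 4, and the second CEBPD probe was 0.10 and 0.17. The number of probes called between prednisolone and control was 0, 1 with quantile normalization and 0 to 3 leaving out 1 animal, and 0 to 4 leaving out 1 animal in the slide-blocked fit. Between slides 4909 probes were called, 144 with normexp and 8537 with no filter on dim probes. For slide 4 against the other prednisolone arrays 3258 were called, 79 with normexp, 7016 with no filter, and 2111 to 3648 leaving out 1 animal. Of the 45 pairs 6 passed, 2 with median centring, 12 with normexp, 3 without slide 4 and 0 in prednisolone or control animals alone. Normexp shifted the median difference of all probes by -0.21. The cause was not tested in any of these cases. The blocked fits leaving out 1 animal, single FKBP5 and ZBTB16 spots and pairs without slide 4 or within a group were chosen after seeing the data. Slide 4 held no control, TSC22D3 was near background, and 15 arrays on 4 slides limit the intervals given.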
